A study of Mus musculus with 28 samples.

Results

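The miRNAs described here are the guide strands of the miR-17-92 cluster and of its paralog miR-106b-25, read across cartilage and subchondral bone of operated mouse knees. They were chosen by name from a list of 10: mmu-miR-17-5p, mmu-miR-18a-5p, mmu-miR-19a-3p, mmu-miR-19b-3p, mmu-miR-20a-5p and mmu-miR-92a-3p of miR-17-92, mmu-miR-106b-5p, mmu-miR-93-5p and mmu-miR-25-3p of miR-106b-25, and mmu-miR-106a-5p, which was not analysed here. The mouse prefix is dropped below. The other 9 each have a row among the 569 miRNA rows of the table. All 9 had a value on every bone array and 7 had one on every cartilage array. miR-17-5p and miR-18a-5p had values in bone only, so every cartilage count below is over 7 members. A row was kept or dropped for a whole tissue in the deposited table.

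Agilent mouse miRNA arrays, hybridised with one labelled RNA each, were used to measure 28 samples in 8 groups. All mice were male C57BL6, aged 10 to 12 weeks at surgery, and both knees of each mouse were operated. The titles of the bone samples mark the mice as WT, and those of the cartilage samples carry no genotype. The model of osteoarthritis was destabilization of the medial meniscus (DMM), in which the ligament that holds the medial meniscus to the tibia was cut surgically. In sham mice it was exposed and left whole, so that the controls had also had their joints opened. Tissue of the medial tibial plateau was laser-microdissected 1 or 6 weeks later. The 4 cartilage groups (sham and DMM at each week) held 3 arrays each, each array a pool of RNA from 3 mice, and the 4 subchondral bone groups held 4 arrays each, each of a single mouse. No unoperated knees were measured here.

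Values are log2 signals as deposited, and a difference of 1 is a doubling of signal. Array medians lay between 6.26 and 6.32 in cartilage and between 6.17 and 6.39 in bone. Pearson correlations across miRNAs within a group had a median of 0.987 in cartilage and 0.951 in bone, where the lowest was 0.809. The array least like its group was that of mouse 68, a bone sham mouse of week 1, with a mean correlation of 0.866, and medians over members that rest on this group are given without single mice of it. The cartilage samples carry a second label that names bone; miR-140-3p, the defining cartilage miRNA, was at 13.41 ± 0.19 (SD, n = 12) in them and at 9.34 ± 0.33 (SD, n = 16) in bone, so the source label that names cartilage was followed. Scanner background was not used here, and the number of arrays limits the precision. The spread behind the p-values is that between pools for cartilage and that between single mice for bone. Comparisons between the tissues use an estimate of spread shared by pools and single mice. The median within-group SD was 0.172 in cartilage and 0.333 in bone, so those p-values describe neither tissue alone.

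miR-17-92 is a polycistron, a single transcript from which several miRNAs are cut, and mammals carry its paralogs miR-106b-25 and miR-106a-363. Its products are known for promoting proliferation and survival in B cells, tumours and developing organs, in part by repressing Bim and Cdkn1a, and in mice loss of the cluster gives small skeletons and lung and heart defects. In chondrocytes and bone-forming cells members of the cluster have been tied to growth and differentiation. Target choice rests mainly on the seed, bases 2 to 8 of the mature miRNA, and the members fall into 4 seed families named after miR-17, miR-18, miR-19 and miR-92.

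The mature sequences show which members share a seed and how little else separates some of them. They are printed 5′ to 3′ from RefSeq, with the seed in capitals, first the miR-17 family, then miR-18a, the miR-19 pair and the miR-92 pair, and all 10 listed members matched an entry by name. miR-20b-5p, a product of miR-106a-363 and no member, is shown because its values come up below.
miR-17-5p: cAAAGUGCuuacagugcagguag
miR-20a-5p: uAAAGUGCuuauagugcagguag
miR-93-5p: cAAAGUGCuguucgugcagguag
miR-106b-5p: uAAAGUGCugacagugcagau
miR-20b-5p: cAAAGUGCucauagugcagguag
miR-18a-5p: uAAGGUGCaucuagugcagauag
miR-19a-3p: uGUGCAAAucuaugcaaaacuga
miR-19b-3p: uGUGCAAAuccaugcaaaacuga
miR-92a-3p: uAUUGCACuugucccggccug
miR-25-3p: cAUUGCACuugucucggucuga

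Positions below are counted from 1 at the 5′ end, with the base of the miRNA named first given first. miR-19a-3p and miR-19b-3p differ only by U11C. miR-17-5p and miR-20a-5p differ by C1U and C12U, and miR-20a-5p and miR-20b-5p by U1C and U10C. miR-17-5p and miR-93-5p differ by U10G, A11U, C12U and A13C. miR-92a-3p and miR-25-3p differ by U1C, C14U and C18U over the 21 bases that both have. Whether the array probes keep such near-identical miRNAs apart was not tested.

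In the RefSeq table for GRCm38.p6 the 6 miR-17-92 guides lie on the plus strand at chr14:115043684-115044496, a stretch of 813 bases. The 3 miR-106b-25 guides lie on the minus strand at chr5:138165332-138165807, 476 bases inside Mcm7, the gene of a replication helicase subunit. miR-19b-3p and miR-92a-3p are each encoded a second time on the X chromosome, in miR-106a-363, so a value for either sums both loci. G and C make up 57.1% of miR-92a-3p, the highest share among the 9, and 34.8% of miR-19a-3p, the lowest.

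In cartilage, 6 of the 7 measured members rose between week 1 and week 6 over both operations, in a comparison that called 17.6% of all rows and 9.82% higher, and DMM cartilage differed from sham in 1 member, miR-19a-3p, which fell over both weeks, where 45.2% of all rows were called and 24% fell. Both of these are contrasts of means over 2 groups, added after the values had been seen. In bone no member passed the test in any comparison. None of the 12 comparisons planned between single groups or single effects called a member in either tissue, at an adjusted p of 0.05 over all rows.

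The miR-17 family in cartilage comprised miR-20a-5p, miR-93-5p and miR-106b-5p, whose shared targets include the cell cycle inhibitor Cdkn1a. miR-20a-5p was at 5.90, 5.86 and 5.72 in the sham pools of week 1 and at 6.02, 5.80 and 5.74 in the DMM pools of week 1, against 6.22, 6.43 and 6.87 in sham and 6.07, 6.40 and 6.11 in DMM at week 6. miR-106b-5p, whose transcript is part of Mcm7, was at 6.00, 5.95 and 5.95 in sham and 6.11, 5.80 and 5.86 in DMM at week 1, and at 6.28, 6.44 and 6.74 in sham and 6.23, 6.45 and 6.34 in DMM at week 6. For both miRNAs all 6 pools of week 6 were above all 6 of week 1, and the highest value of all was sham pool 3 of week 6. miR-93-5p, from the same transcript as miR-106b-5p, stood at 5.98, 5.88 and 5.77 in sham and 5.97, 5.87 and 5.76 in DMM at week 1, and at 6.04, 6.18 and 6.35 in sham and 5.94, 6.17 and 6.11 in DMM at week 6. Its sham pools did not overlap between weeks, while DMM pool 1 of week 6 lay below DMM pool 1 of week 1.

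The miR-19 pair carries the seed that, in mouse B-cell lymphoma, accounts for much of the cluster's growth-promoting effect. miR-19a-3p was at 5.61, 6.03 and 5.30 in sham and 5.55, 5.19 and 5.22 in DMM at week 1, and at 6.13, 5.83 and 6.08 in sham and 5.51, 5.59 and 5.48 in DMM at week 6. At week 6 all 3 DMM pools lay below all 3 sham pools, and at week 1 the groups overlapped, with sham pool 3 low and DMM pool 1 high. miR-19b-3p was at 6.75, 6.57 and 6.80 in sham and 6.81, 6.54 and 6.46 in DMM at week 1, and at 6.94, 7.18 and 7.44 in sham and 6.83, 7.01 and 6.82 in DMM at week 6. Its week 6 pools were all above its week 1 pools, the closest being a DMM pool of 6.82 at week 6 and one of 6.81 at week 1.

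In the miR-92 family, miR-92a-3p, which in mouse is known to restrain vessel growth, was at 7.63, 8.01 and 7.73 in sham and 7.67, 8.11 and 8.08 in DMM at week 1, and at 8.27, 8.23 and 8.36 in sham and 8.26, 8.20 and 8.25 in DMM at week 6. The 6 values of week 6 spanned only 8.20 to 8.36 and lay above all those of week 1. miR-25-3p, a known regulator of Bim, was at 7.49, 7.38 and 7.60 in sham and 7.27, 7.41 and 7.21 in DMM at week 1, and at 7.54, 7.80 and 7.80 in sham and 7.71, 7.62 and 7.48 in DMM at week 6. Sham pools of the 2 weeks overlapped and DMM pools did not.

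**Figure D1:**
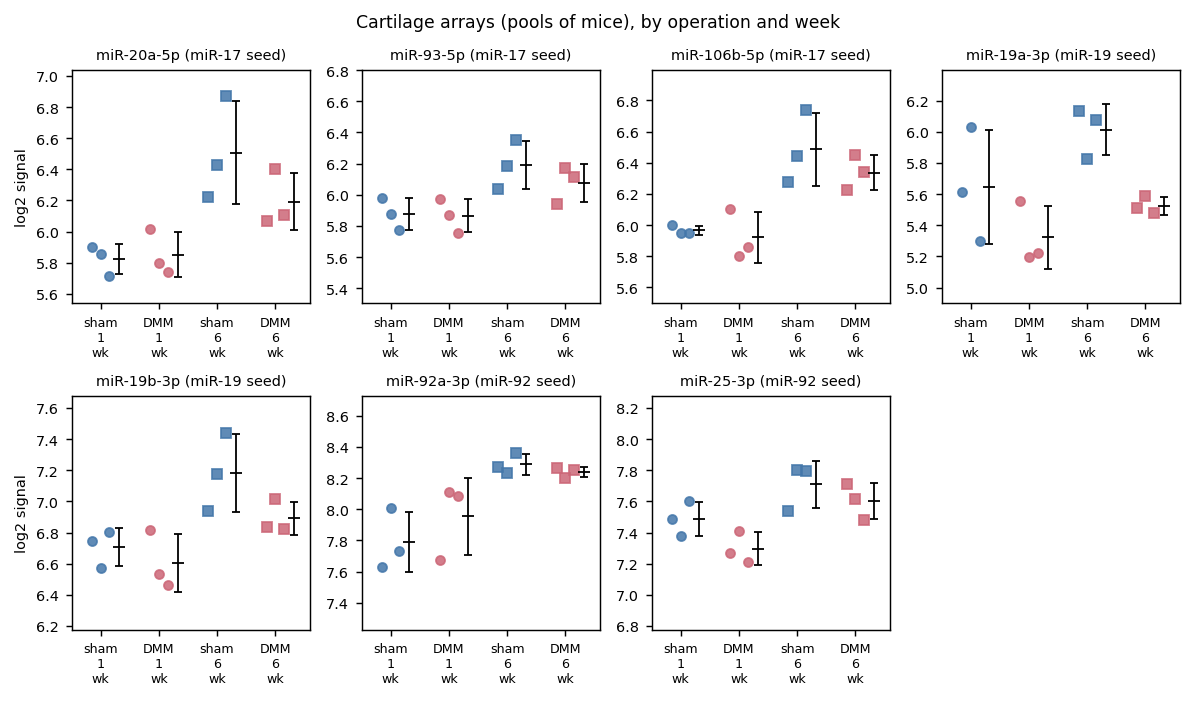
Log2 signal (y axis) of the 7 members measured in cartilage, one panel per member, in the sham and DMM pools of weeks 1 and 6 (x axis); points are single pools (n = 3 per group) and black bars the mean ± SD. Most week 6 points sit above the week 1 points, and in the miR-19a-3p panel the 3 DMM pools of week 6 (5.48 to 5.59) sit below the 3 sham pools (5.83 to 6.13).

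Sham cartilage at week 6 had the highest group mean for all 7 members, and DMM cartilage at week 6 came second for 6 of them, the exception being miR-19a-3p. The gap between the first and second group exceeded the pooled within-group SD for 3 members, and the gap between the second and the third for 5. Neighbouring groups not separated by more than that SD are not ordered by these data. Within-group SDs of the members in cartilage had a median of 0.161, next to 0.172 over all 438 rows.

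Cartilage of week 6 was compared with cartilage of week 1 over both operations, a comparison of time after surgery, which the mice's age follows. The limma fit called 6 of 7 members higher, as above. Array batches were not used here, and their part was not tested. The members' median difference was 0.38, against -0.03 over all rows. miR-20a-5p rose by 0.51 ± 0.11 (SE; adjusted p = 0.0136) and miR-106b-5p by 0.47 ± 0.09 (adjusted p = 0.00748), and these 2 calls held in every alternative that tested them. miR-92a-3p rose by 0.39 ± 0.09 (adjusted p = 0.0174) and miR-19b-3p by 0.38 ± 0.10 (adjusted p = 0.0228). miR-25-3p and miR-93-5p each rose by 0.26 ± 0.08, with adjusted p of 0.0372 and 0.0399, but these calls held in only 8 of 18 and 7 of 17 alternatives. miR-19a-3p, at 0.28 ± 0.12 (adjusted p = 0.120), was not called. The count fell to 2 without sham pool 1 of week 1 and to 3 without either DMM pool 3 of week 1 or DMM pool 2 of week 6.

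Split by operation, the 7 differences between weeks were all positive in both. Among sham pools their median was 0.48, from 0.22 for miR-25-3p to 0.68 for miR-20a-5p, and the lowest adjusted p was 0.0989, in a comparison with 0.228% of rows called. Among DMM pools the median was 0.29, from 0.20 for miR-19a-3p to 0.42 for miR-106b-5p (adjusted p = 0.0816), with 4.79% of rows called. Pools of the 2 weeks did not overlap for 5 of 7 members in sham, where 12.8% of rows were separate and higher. The same held for 5 of 7 in DMM, where 13% of rows were. The operations shared 4 such members, and differed in miR-93-5p (sham) and miR-25-3p (DMM). The sham and DMM changes over time differed by -0.34 ± 0.23 (SE; adjusted p = 0.999) at most, for miR-20a-5p, and 0% of rows were called in that comparison by limma, with 13 rows at an unadjusted p under 0.05 and no member among them.

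Of the blood-cell markers 1 was called over the same weeks in cartilage. Of 5 listed erythroid markers, miR-451a and miR-486a-5p had cartilage values, and of 6 leukocyte markers miR-142a-3p, miR-223-3p and miR-342-3p did. From week 1 to week 6 over both operations miR-451a, which is made in red cell precursors, rose by 1.00 ± 0.30 (adjusted p = 0.0354). The other 4 ranged from 0.13 for miR-342-3p to 0.57 for miR-142a-3p and were not called. The log2 of the summed erythroid signal ran from 7.41 to 8.27 in sham and 7.58 to 7.99 in DMM at week 1, and from 8.50 to 10.18 in sham and 7.75 to 8.55 in DMM at week 6. The summed leukocyte signal ran from 8.27 to 8.78 in sham and 8.21 to 8.69 in DMM at week 1, and from 8.64 to 9.79 in sham and 8.00 to 8.52 in DMM at week 6. Between weeks in DMM pools, where all 7 members had positive differences, the median over the erythroid markers was 0.20 and over the leukocyte markers 0.02. In sham pools, where all 7 members were positive as well, these marker medians were 1.04 and 0.83. Without sham pool 3 of week 6, the pool highest in miR-20a-5p, miR-223-3p and miR-451a, 4 of 7 members passed and their median was 0.32. A log scale has no zero, so no marker can be said to be absent. In bulk tissue, fewer cells of a type and less RNA per cell cannot be told apart.

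DMM was compared with sham in cartilage at each week to ask which miRNAs differ as osteoarthritis starts. At week 1 no member was called, while 27.9% of rows were; the members' median was -0.04 against -0.02 over all rows, and 2 of 7 were positive. miR-92a-3p had the highest value, 0.17 ± 0.13 (adjusted p = 0.388), and miR-19a-3p the lowest, -0.32 ± 0.17 (adjusted p = 0.172). At week 6 no member was called, while 16.9% of rows were. All 7 differences were negative, with a median of -0.15 against -0.04 over all rows.

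miR-19a-3p had the most negative difference of the 7 at week 6, -0.49 ± 0.17 (SE; 95% interval -0.86 to -0.12; adjusted p = 0.0603), and was the only member whose groups did not overlap, in a comparison where 18% of rows were separate and lower. Its call hung on the fit: the adjusted p was 0.0379 without sham pool 2 of week 1, also under 0.05 without sham pool 3 of week 1, and 0.153 without DMM pool 2 of week 6. miR-20a-5p was at -0.32 ± 0.16 (adjusted p = 0.168) and miR-19b-3p at -0.29 ± 0.14 (adjusted p = 0.148). The remaining 4 lay between -0.15 for miR-106b-5p and -0.05 for miR-92a-3p. Without sham pool 1 of week 6, which was the cartilage array least like its group, 2 members passed. Under the alternatives 20 to 189 of 438 rows were called at week 6, so this count is not read as a result about the members.

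Over both weeks together miR-19a-3p fell by 0.41 ± 0.12 on the log2 scale in DMM cartilage (adjusted p = 0.0155), 1.32-fold lower than in sham. It was the only member called. The value ranged from -0.49 to -0.31 over the 17 alternatives that tested it, all of which called it. Its mean in cartilage, 5.63, lay below the array medians of 6.26 to 6.32. Omission of rows under the median level therefore left it untested. Its one-base relative miR-19b-3p was at -0.20 ± 0.10 (adjusted p = 0.124) and miR-25-3p at -0.15 ± 0.08 (adjusted p = 0.147), and both passed without sham pool 1 of week 6, which gave 3 called members. Under the alternatives 110 to 251 of 438 rows were called over both weeks. miR-92a-3p was at 0.06 ± 0.09. The DMM effect on miR-19a-3p differed by -0.16 ± 0.24 (adjusted p = 0.999) between week 6 and week 1.

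Markers of other cells were read beside these values. At week 6 both measured erythroid markers were called lower in DMM cartilage, miR-451a at -1.34 ± 0.42 (adjusted p = 0.0465) and miR-486a-5p at -0.50 ± 0.14 (adjusted p = 0.0283). Of 3 leukocyte markers 2 were called lower, miR-223-3p at -1.19 ± 0.37 (adjusted p = 0.0465) and miR-342-3p at -0.57 ± 0.14 (adjusted p = 0.0172), and miR-142a-3p was at -0.98 ± 0.33 (adjusted p = 0.0566). At week 1 none of the 5 was called, nor was miR-19a-3p at -0.32; miR-342-3p was at -0.36 ± 0.14 (adjusted p = 0.0775), and its pools, unlike those of miR-19a-3p, did not overlap. Of 4 muscle markers miR-206-3p alone was called, higher by 0.53 ± 0.13 at each week (adjusted p = 0.0107 and 0.0166), and the muscle median was -0.75 at week 1 and 0.05 at week 6. Of 4 cartilage markers 1 was called lower at week 1, miR-455-5p at -0.40 ± 0.13 (adjusted p = 0.0457), and none at week 6. At week 6 the DMM pools of miR-140-3p and miR-140-5p nevertheless lay below all sham pools, as those of miR-19a-3p did. At week 1 those of miR-455-3p, miR-455-5p, miR-1a-3p and miR-133a-3p did so. Over both weeks, where miR-19a-3p was called, 2 of 4 cartilage markers were called lower, miR-140-3p at -0.27 ± 0.08 (adjusted p = 0.0145) and miR-140-5p at -0.29 ± 0.10 (adjusted p = 0.0402). So were 1 of 2 erythroid markers, miR-486a-5p, and 1 of 3 leukocyte markers, miR-342-3p, while miR-206-3p was called higher. The endothelial marker miR-126a-3p was called in none of these. Without sham pool 3 of week 6 the members' median at week 6 was -0.06, and miR-19a-3p was at -0.45 (adjusted p = 0.153). The part of other cells in the DMM difference of any member was not tested.

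**Figure D2:**
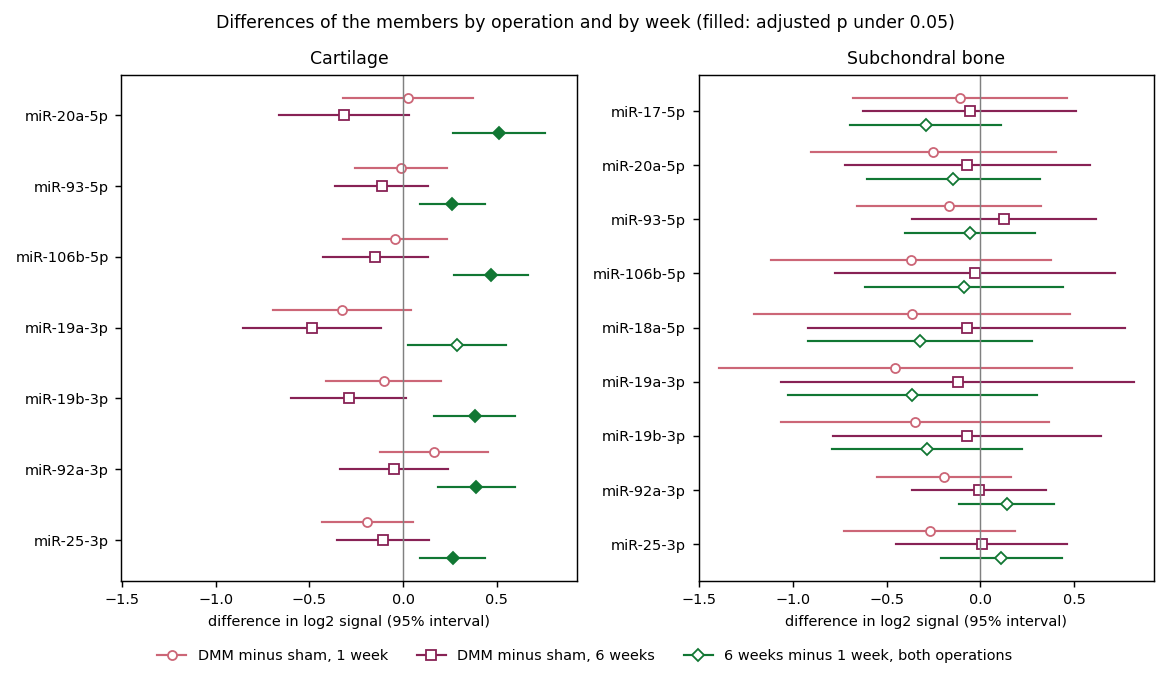
Difference in log2 signal (x axis) of each member (y axis) for DMM minus sham at week 1 (circles), DMM minus sham at week 6 (squares) and week 6 minus week 1 over both operations (diamonds), in cartilage (left) and subchondral bone (right); lines are 95% intervals and filled markers passed an adjusted p of 0.05 over all rows. The only filled markers are the cartilage diamonds of 6 members, all but miR-19a-3p, and the intervals in bone all include 0.

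Bone values of the same miRNAs are set beside those of cartilage only as levels, because rows were filtered per tissue and whether both were normalized together is not known here. Mean log2 signals in cartilage (n = 12) and bone (n = 16) were 6.09 ± 0.34 (SD) and 9.68 ± 0.44 for miR-20a-5p and 6.00 ± 0.18 and 9.16 ± 0.31 for miR-93-5p. For miR-106b-5p they were 6.18 ± 0.28 and 8.90 ± 0.51, for miR-19a-3p 5.63 ± 0.33 and 7.45 ± 0.68, and for miR-19b-3p 6.85 ± 0.27 and 9.38 ± 0.51. The miR-92 family was at 8.07 ± 0.25 and 9.66 ± 0.22 for miR-92a-3p and at 7.52 ± 0.19 and 9.46 ± 0.30 for miR-25-3p. For all 7 the bone value was the higher as deposited. miR-17-5p was at 6.12 ± 0.39 and miR-18a-5p at 7.19 ± 0.60 in bone.

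In subchondral bone, which holds marrow as well as bone cells, the pooled within-group SD exceeded the range of group means for 8 of 9 members. Spread was unequal between groups: for miR-19a-3p at week 1 the SD was 1.22 among sham mice and 0.147 among DMM mice. miR-19a-3p was at 7.52, 6.58, 7.81 and 9.51 in sham mice 66, 68, 86 and 96 of week 1, and at 7.58, 7.45, 7.24 and 7.34 in DMM mice 67, 77, 85 and 93 of week 1. At week 6 it was at 7.63, 7.60, 7.05 and 7.02 in sham mice 10, 12, 22 and 26 and at 7.39, 7.91, 6.59 and 6.93 in DMM mice 5, 6, 21 and 25. The sham mice of week 1 thus held both the highest and the lowest value of the 16, and all groups overlapped. In the same order of mice miR-18a-5p, the only member of its seed family, was at 7.51, 6.44, 7.37 and 8.82 in sham and 7.37, 7.27, 7.04 and 7.0 in DMM at week 1, and at 7.58, 7.24, 6.71 and 6.73 in sham and 7.20, 7.77, 6.39 and 6.61 in DMM at week 6. Mouse 96 was again highest, while the lowest was DMM mouse 21 of week 6.

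miR-17-5p, the name-giving member, was at 6.22, 5.59, 6.40 and 7.06 in sham and 6.27, 6.17, 6.21 and 6.18 in DMM at week 1, and at 6.28, 6.19, 5.70 and 5.83 in sham and 6.03, 6.52, 5.49 and 5.72 in DMM at week 6. miR-20a-5p, from the same cluster, was at 9.66, 9.20, 9.86 and 10.80 in sham and 9.70, 9.75, 9.48 and 9.57 in DMM at week 1, and at 9.87, 10.04, 9.49 and 9.17 in sham and 9.61, 10.29, 9.14 and 9.25 in DMM at week 6. Both had mouse 96 highest and mouse 21 lowest. miR-92a-3p was at 9.65, 9.62, 9.68 and 9.79 in sham and 9.22, 9.38, 9.79 and 9.57 in DMM at week 1, and at 9.82, 9.52, 9.57 and 10.01 in sham and 9.97, 9.91, 9.51 and 9.49 in DMM at week 6. Here mouse 96 stood among the others, with sham mouse 26 of week 6 highest and DMM mouse 67 of week 1 lowest.

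The remaining 4 members are given by their range over the 8 mice of each week. miR-19b-3p ran from 8.85 to 10.90 at week 1 and from 8.75 to 9.83 at week 6, and miR-106b-5p from 8.31 to 10.30 and from 8.33 to 9.59. miR-93-5p ran from 8.85 to 9.91 at week 1 and from 8.81 to 9.76 at week 6, and miR-25-3p from 9.11 to 10.08 and from 9.04 to 10.02. All overlapped between weeks.

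**Figure D3:**
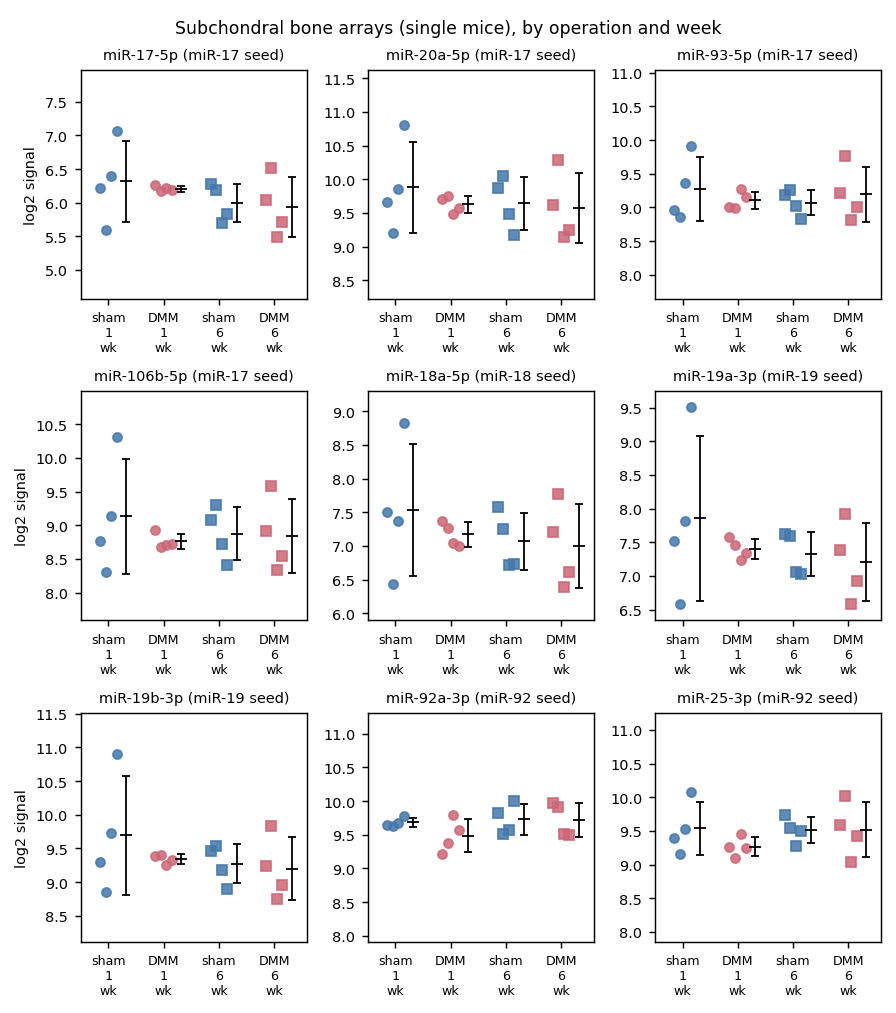
Log2 signal (y axis) of the 9 members in subchondral bone, one panel per member, in sham and DMM mice of weeks 1 and 6 (x axis); points are single mice (n = 4 per group) and black bars the mean ± SD. Sham mouse 96 of week 1 is the top point for miR-19a-3p at 9.51, whereas the miR-92a-3p points stay between 9.22 and 10.01.

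Within-group SDs in bone had a median of 0.472 over the members, next to 0.333 over all 490 rows. They ranged from 0.214 for miR-92a-3p to 0.700 for miR-19a-3p. Sham mouse 96 of week 1 lay above the mean of the other 3 mice of its group in 9 of 9 members, by a median of 1.23, from 0.14 for miR-92a-3p to 2.21 for miR-19a-3p. Mouse 68 of the same group lay below the other 3 in 9 of 9, with a median of -0.97. DMM mice 6 and 21 of week 6 deviated by medians of 0.85 and -0.60, each again in 9 of 9 members. Of the blood-cell markers, mouse 96 was above the mean of the others in 4 of 4 erythroid and 3 of 5 leukocyte ones, by 2.24 in miR-144-3p, 2.01 in miR-142a-3p and 1.01 in miR-223-3p, but at -0.27 in miR-150-5p and -0.10 in miR-342-3p. Mouse 68 was below the others in 3 of 4 erythroid and 4 of 5 leukocyte markers, at -1.79 in miR-144-3p and -1.56 in miR-142a-3p, and at 0.11 in miR-342-3p. DMM mouse 6 was above and DMM mouse 21 below the others in 4 of 4 and 5 of 5. Their part in the members' spread was not tested.

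The bone groups differed in mean by less than the pooled within-group SD for 8 of 9 members, so the order of their group means is not resolved. The exception was miR-92a-3p, with a range of means of 0.24 against an SD of 0.214, and there too no gap between neighbouring groups exceeded the SD. DMM against sham called no member at week 1 or week 6, and limma called 0% of rows in either, with 3 and 2 rows at an unadjusted p under 0.05. The members' differences at week 1 were all negative with a median of -0.27, from -0.45 ± 0.44 for miR-19a-3p to -0.11 ± 0.27 for miR-17-5p. Over all rows the median was -0.06 and 39.2% were positive. The members' direction rested on 1 mouse: without mouse 96 their median was 0.05 and 7 of 9 were positive. Leaving out mouse 68 pulled the other way, with miR-19a-3p at -0.88. At week 6 the members' median was -0.06, against -0.002 over all rows, with values from -0.12 ± 0.44 for miR-19a-3p to 0.12 ± 0.23 for miR-93-5p. Without DMM mouse 21 it was 0.09 with 9 of 9 positive, and without DMM mouse 6 it was -0.28 with none positive.

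The DMM effect in bone did not pass the test of a difference between weeks for any member or for any row (0% called), with 1 row at an unadjusted p under 0.05. The members' median difference was 0.28, against 0.08 over all rows, of which 70.4% were positive. Without mouse 96 the members' median was -0.12. Without mouse 68 miR-19a-3p was at 0.76, against 0.33 with all mice. Week 6 against week 1 called 0% of rows among sham mice and 0% among DMM mice, with 54 and 95 rows at an unadjusted p under 0.05, none of them a member. Over both operations 7.55% of rows were called between weeks in bone and again no member. The members' median was -0.14, against -0.06 over all rows, with values from -0.36 ± 0.31 for miR-19a-3p to 0.14 ± 0.12 for miR-92a-3p. Without mouse 96 the members' median was 0.01 with 5 of 9 positive, and miR-19a-3p was at -0.09. Without mouse 68 miR-19a-3p was at -0.58. Among sham mice alone the members' median between weeks was -0.26, against -0.09 over all rows. The members' median was 0.02 without mouse 96 and -0.53 without mouse 68. Over both weeks DMM against sham called 0% of rows in bone, with 2 rows at an unadjusted p under 0.05. The members' median was -0.16, against -0.02 over all rows, and -0.01 without mouse 96. There miR-19a-3p was at -0.50 without mouse 68, against -0.29 with all mice.

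Whether the tissues differed was tested over the 359 rows and 7 members measured in both. For the change from week 1 to week 6 over both operations, a comparison added after the values had been seen, cartilage minus bone was positive for 7 of 7 members, with a median of 0.55. miR-19b-3p was at 0.67 ± 0.30 (adjusted p = 0.127) and miR-20a-5p at 0.66 ± 0.28 (adjusted p = 0.113). No member passed and limma called 0% of rows, with 121 rows, 2 of them members, at an unadjusted p under 0.05, so a rise particular to cartilage was not shown. Without mouse 68 of the bone sham group of week 1, 2 members passed and the median was 0.69. Under the alternatives 0 to 205 of the 359 rows were called in this comparison. Without mouse 96 of the same group none passed and the median was 0.36, with miR-19a-3p at 0.37 and miR-25-3p at 0.06. The DMM effect differed between tissues for no member at either week, with 0.279% of rows called at week 1 and 0.557% at week 6. Cartilage minus bone had a median over members of 0.25 at week 1, against 0.10 over all rows, and of -0.07 without mouse 96. At week 6 the members' median was -0.22, against -0.02 over all rows. Arrays of the 2 tissues were treated as independent there, although both may have come from the same mice, because the labels do not tie pools to mice.

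The members' shared course was described by centring each on its mean over the arrays of a tissue and averaging. Distances are mean absolute differences of centred log2 signal. For pairs of members each row was instead centred on its mean in each group. Pair distances thus compare deviations of arrays within groups and leave out changes with week and operation. Pairs of members with the same seed lay a median of 0.0702 apart in cartilage (5 pairs) and pairs with different seeds 0.152 (16 pairs), and in bone these medians were 0.132 (8 pairs) and 0.185 (28 pairs). The seed families differed in this. In cartilage the miR-17 family pairs lay 0.0566 to 0.0702 apart, the miR-19 pair 0.167 and the miR-92 pair 0.146. In bone they lay 0.0746 to 0.175, 0.129 and 0.189 apart. Pairs of the same cluster lay 0.162 apart in cartilage (9 pairs) and pairs of different clusters 0.145 (12 pairs), and in bone the medians were 0.172 and 0.173 (18 pairs each). The closest pair in both tissues shares neither seed nor cluster: miR-106b-5p and miR-19b-3p were 0.0508 apart in cartilage and 0.0618 in bone. Pairs with miR-92a-3p had the higher median in bone, 0.338 (8 pairs) against 0.160 for the rest (28 pairs). Pair distances also grow with the spread of each row, and miR-92a-3p had the lowest within-group SD in bone, 0.214. Its distances rose in the order of its partners' SDs, from 0.189 for miR-25-3p (SD 0.306) to 0.422 for miR-19a-3p (SD 0.700). The pair distances by seed, cluster or miR-92a-3p therefore cannot tell whether members move together.

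**Figure D4:**
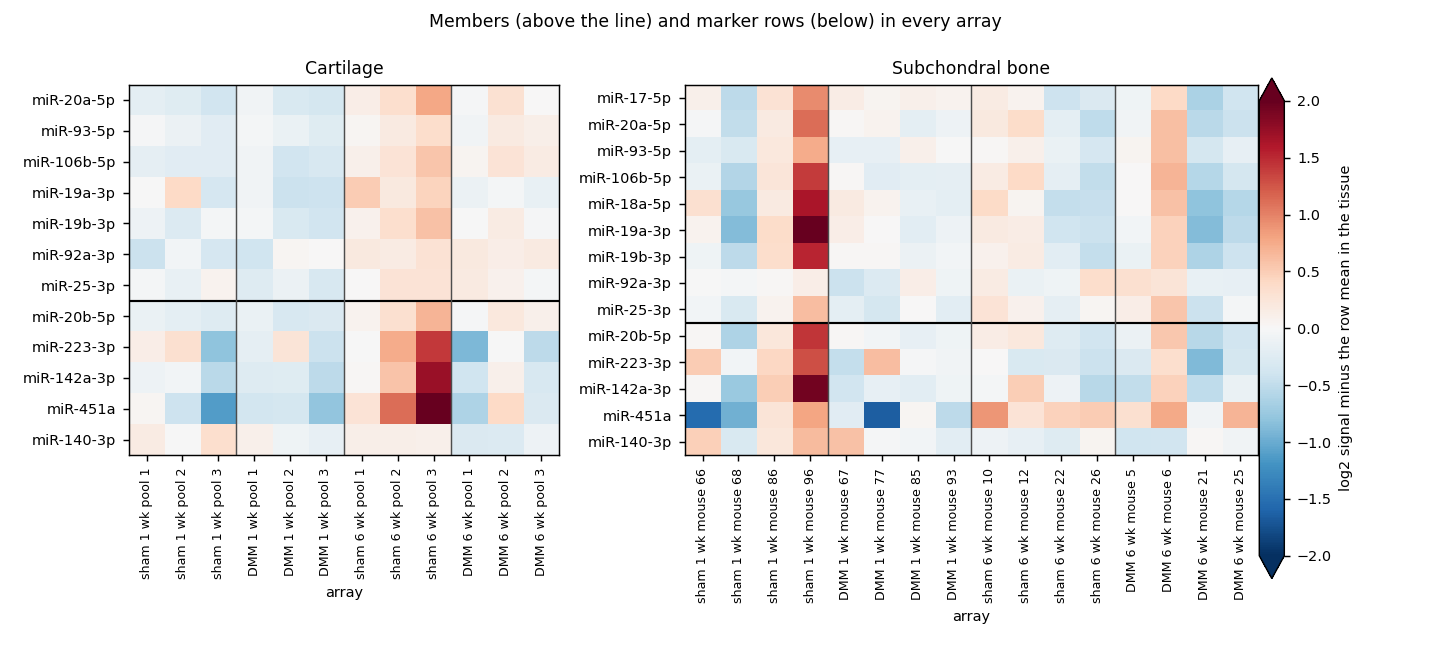
Log2 signal minus the row's mean in the tissue (colour, red above and blue below, clipped at -2 and 2) for each member (rows above the black line) and for miR-20b-5p, miR-223-3p, miR-142a-3p, miR-451a and miR-140-3p (rows below it) on every cartilage pool and bone mouse (columns, vertical lines between groups). The column of bone sham mouse 96 of week 1 is red in the members' rows but pale for miR-92a-3p, and in cartilage sham pool 3 of week 6 is red in the members' rows and deepest for miR-451a.

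Among rows that varied at least as much as the shared profile, the one most like it in both tissues was miR-20b-5p, the miR-17 family product of miR-106a-363, which differs from miR-20a-5p at 2 bases. It lay 0.0657 from the profile over the 12 cartilage arrays, where the median of 258 rows was 0.309, and 0.0682 over the 16 bone arrays, where the median of 179 rows was 0.500. Next in cartilage came miR-1957b at 0.0990, miR-29c-3p at 0.112, miR-29b-3p at 0.113 and miR-30a-5p at 0.116. Next in bone came miR-130b-3p at 0.122, miR-26b-5p at 0.126, miR-15a-5p at 0.127 and miR-17-3p at 0.131. miR-17-3p is the opposite strand of the miR-17 hairpin, and no other of these rows is a product of the 3 clusters. Arrays share their total signal and normalization. Blood-cell markers lay further off, but this distance grows with a row's own spread and cannot tell whether they follow the profile. In cartilage the SDs were 0.893 for miR-451a, 0.653 for miR-223-3p and 0.624 for miR-142a-3p, against 0.226 for the profile. In bone they were 0.796, 0.530 and 0.636, against 0.405. miR-142a-3p was 0.277 from the profile in cartilage and 0.236 in bone, miR-223-3p 0.435 and 0.261, and miR-451a 0.509 and 0.567.

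Of 21 listed relatives, the other products of the 3 clusters and miRNAs with the miR-92 seed made elsewhere, 1 was measured in cartilage and 6 in bone. In cartilage miR-20b-5p was at 5.65, 5.59 and 5.53 in sham and 5.65, 5.48 and 5.50 in DMM at week 1, and at 5.85, 6.11 and 6.46 in sham and 5.76, 6.00 and 5.88 in DMM at week 6. It rose by 0.45 ± 0.10 over both operations (adjusted p = 0.0136), all 6 pools of week 6 being above all 6 of week 1. None of the 6 in bone (miR-17-3p, miR-18a-3p, miR-18b-5p, miR-20b-5p, miR-106a-3p and miR-106b-3p) was called in any comparison. miR-106a-3p had the largest DMM difference of these, 1.00 ± 0.34 over both weeks (adjusted p = 0.998). Its DMM mice were split, at 6.34, 4.79, 4.98 and 6.15 at week 1 and 6.52, 6.93, 4.78 and 4.50 at week 6, while the sham mice stayed between 4.08 and 4.90. The sham value of 4.08 was the lowest of all bone rows, so the low values of this miRNA lay near the floor.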

How the data were processed

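Total RNA from laser-microdissected tissue was hybridised to Agilent mouse miRNA arrays, per the labels' protocols. The deposited values were read as log2 signals, judged by their range, and no further normalization was applied. The submitters' processing notes name limma 3.20.9; for background correction, normalization and row filter the method is not stated here. Of 569 rows, 438 have a value on all 12 cartilage arrays, 490 on all 16 bone arrays and 359 on all 28. Unused sample columns numbered 0.

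A group-means model was fitted per tissue with limma 3.58.1 in R 4.3.3, with empirical Bayes moderation, and the differences between tissues were fitted on all 28 arrays. Benjamini-Hochberg adjustment ran over all rows of a comparison, and an adjusted p under 0.05 counted as called. Of 17 comparisons, 12 were planned and 5 were added after the values had been seen: DMM against sham over both weeks and week 6 against week 1 over both operations in each tissue, and the latter between tissues. The fit was tested on simulated data. Levels, spreads and distances were computed with pandas 2.3.3 and numpy 2.4.6 in Python 3.11.15.

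All 9 members are named. For likeness, rows whose centred values vary at least as much as the members' mean profile were ranked by mean absolute difference from it, and the 5 closest per tissue were named. Relatives and markers (erythroid, leukocyte, cartilage, muscle and endothelial) came from lists, and members and lists were chosen with earlier results of these data known. Sequences and positions are from RefSeq tables for GRCm38.p6. Alternatives were array weights, a trend and robust prior, quantile normalization, centring each array on its 75th percentile, omission of rows under the median level, fits of only the groups compared, a replicate block in cartilage, and leaving out each array in turn.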

Additional observations from a re-analysis of the deposited data

How the results depend on the processing

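No alternative reversed a called difference. Counts of called members in cartilage moved as follows. Array weights gave 1 for DMM against sham at week 1, 1 at week 6, 2 over both weeks, 6 for sham and 1 for DMM at week 6 against week 1. Centring on the 75th percentile gave 1 for DMM against sham at week 6, 3 over both weeks (with miR-92a-3p negative) and 1 for DMM between weeks, where quantile normalization also gave 1. Leaving out rows below the median level left 3 members to test, of which 0 were called for DMM against sham over both weeks and 2 between weeks over both operations. Leaving out each array in turn gave 0 to 2 for DMM against sham at week 6, 1 to 3 over both weeks, 0 to 3 for sham between weeks and 2 to 6 for both operations between weeks; in the last, miR-93-5p and miR-25-3p lost their calls most often. In bone, array weights gave 1 for DMM mice between weeks and 5 over both operations, and 5 for the change between weeks in cartilage minus bone, where leaving out each array gave 0 to 2. These weights did not converge in bone or over both tissues. Under the alternatives the rows called in these comparisons reached 274 of 490, 308 of 490 and 205 of 359. The counts are therefore not read as a result about the members. The cause of these moves was not tested.

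Cartilage pools share replicate numbers across groups, but same-numbered pools did not deviate together: 18 pairs had a median correlation of -0.25, with 3 over 0.1, against 0.06 for 36 pairs of different number. With a replicate block, 3 members instead of 6 were called between weeks over both operations, and no other count of called members moved. Counts over all rows ranged under the alternatives from 42 to 172 (122 as reported) for DMM against sham in cartilage at week 1 and from 20 to 189 (74) at week 6. For bone they ranged from 0 to 38 (0) and from 0 to 54 (0), and between weeks over both operations from 35 to 107 (77) in cartilage and from 0 to 308 (37) in bone. In cartilage they ranged from 110 to 251 (198) for DMM against sham over both weeks. Between weeks in cartilage they ranged from 0 to 68 (1) for sham pools and from 6 to 35 (21) for DMM pools.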
